A study of Mus musculus with 12 samples.

Results

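The enzymes that break down drugs and other foreign compounds were examined in gut epithelial cells of Chd8L+/- and wild type (WT) mice. These genes were chosen by symbol alone, as the cytochromes P450 of families 1 to 4 (Cyp1a, Cyp1b, Cyp2, Cyp3a and most Cyp4 genes), carboxylesterases (Ces1 to Ces3), UDP-glucuronosyltransferases (Ugt1a and Ugt2), cytosolic and microsomal glutathione S-transferases (Gst and Mgst) and sulfotransferases (Sult). The rule took 111 of the 14244 genes with a deposited value. The cells came from 12 male littermates on the C57BL/6 background, all 8 weeks old and with no treatment named, and each mouse gave 1 poly(A) RNA library. In 5 mice both copies of Chd8, a chromatin remodeler, were intact, and 7 mice lacked a run of Chd8 exons on 1 allele in all of their tissues. The cells had been shaken off pieces of intestine after incubation with EDTA and DTT, without a sort, and the source does not say from which stretch of the intestine.

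Xenobiotic metabolism is usually divided into a step that makes a compound reactive and a step that makes it soluble. In the first, cytochromes P450 oxidize the compound and carboxylesterases split its ester bonds. In the second, a polar group is joined to it: glucuronic acid by UGTs, glutathione by GSTs and sulfate by SULTs. In the intestine the enterocytes of the villi carry most of these enzymes, which meet compounds from food and drugs before they reach the liver. Several of the genes also act on the body's own substrates, such as fatty acids, leukotrienes, retinoids, steroids and bilirubin.

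Between 15691662 and 20761315 reads per library had been counted on genes, and the values used here are these counts divided by a size factor of the library (normalized counts). Chd8, counted over its whole length, was between 823 and 1050 in WT and between 1084 and 1483 in Chd8L+/- libraries, so it was higher in all of the latter (log2 fold change 0.44 ± 0.10 SE, limma adjusted p = 0.121), and a count over the whole gene does not check the deleted exons. WT replicate 2 stood apart from the other WT libraries: on the first principal component, which held 39.7% of the variance, it lay at 41.0, among the Chd8L+/- libraries (0.26 to 42.7), while the other WT libraries lay between −67.5 and −26.2. Epithelial markers were present in every library, with Vil1 at 26440 or more. The summed value of 18 enterocyte markers was 518400 to 1166000 in WT and 453500 to 1025000 in Chd8L+/- libraries, and that of 16 markers of cycling crypt cells 6918 to 26620 and 16130 to 30130. WT replicate 2 had the lowest enterocyte sum and the highest crypt sum of the WT libraries.

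Many of the enzymes belong to clusters of recently duplicated genes, and this limits which of them a read can name. Of all stretches of 75 bases, the read length, in the transcripts of each gene, the share that also occurs in a transcript of another gene was over 25% for 19 of the 111 genes and over 50% for 9. Pairs of coding stretches from the mouse genome (GRCm38, GENCODE M21 transcripts) show the range, from a pair with few differing bases to a pair with many, with the bases that differ between the partners in capitals.
Cyp3a41a, chr5:145717959-145718018, minus strand: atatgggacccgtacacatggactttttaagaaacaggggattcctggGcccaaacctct
Cyp3a41b, chr5:145582549-145582608, minus strand: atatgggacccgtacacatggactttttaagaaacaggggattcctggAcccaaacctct
Gstp1, chr19:4036694-4036753, minus strand: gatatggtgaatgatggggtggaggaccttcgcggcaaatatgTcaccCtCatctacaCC
Gstp2, chr19:4040988-4041047, minus strand: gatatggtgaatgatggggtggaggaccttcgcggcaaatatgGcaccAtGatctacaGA
Ugt2b5, chr5:87125280-87125339, minus strand: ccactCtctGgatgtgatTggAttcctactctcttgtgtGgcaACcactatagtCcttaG
Ugt2b38, chr5:87410275-87410334, minus strand: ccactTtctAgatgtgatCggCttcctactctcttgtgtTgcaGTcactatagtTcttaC
Cyp4f40, chr17:32659572-32659631, plus strand: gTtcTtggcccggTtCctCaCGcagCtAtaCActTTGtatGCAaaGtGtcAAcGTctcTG
Cyp4f14, chr17:32916740-32916799, minus strand: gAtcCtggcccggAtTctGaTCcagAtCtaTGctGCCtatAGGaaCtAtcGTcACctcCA
Along the whole coding sequence Cyp3a41a and Cyp3a41b had the same base at 1510 of 1512 positions, Gstp1 and Gstp2 at 618 of 630, Ugt2b5 and Ugt2b38 at 1543 of 1590, and Cyp4f40 and Cyp4f14 at 1267 of 1572. How the authors' counting treated reads that fit several genes is not given in the sources used here, so the split between the members of a near-identical pair is uncertain. The genes of the Ugt1a locus share their last exons, and 53.3% (Ugt1a7c) to 95.7% (Ugt1a6a) of their stretches occurred in another gene.

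The abundant enzymes were few. To compare genes with each other, the mean value over the 12 libraries was divided by the length of the exons of the gene in kilobases. On this scale 5 genes made up 38% of the summed level of the 111, namely Cyp4f14 (9180 normalized counts per kilobase), Ces2e (6380), Gsto1 (5990), Ces2c (5300) and Cyp3a13 (4890). Cyp4f14 hydroxylates leukotriene B4 and fatty acids at their last carbon, and the Ces2 enzymes hydrolyse esters with a large alcohol group, many prodrugs among them. The first 10 genes made up 56.6% and the first 20 made up 80.1%. By family, cytosolic GSTs held 24.4% of the summed level per kilobase, CYP4 18.3%, carboxylesterases 17.8%, CYP2 11.8%, CYP3 10.8%, MGSTs 6.43%, SULTs 5.91% and UGTs 4.55%, and Cyp1a1, the sole CYP1 gene with a value, 0.0148%. Together the 111 genes took 0.83% to 1.32% of the summed normalized counts of a library, with a median of 1.1% in WT and 1.07% in Chd8L+/-.

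**Figure D1:**
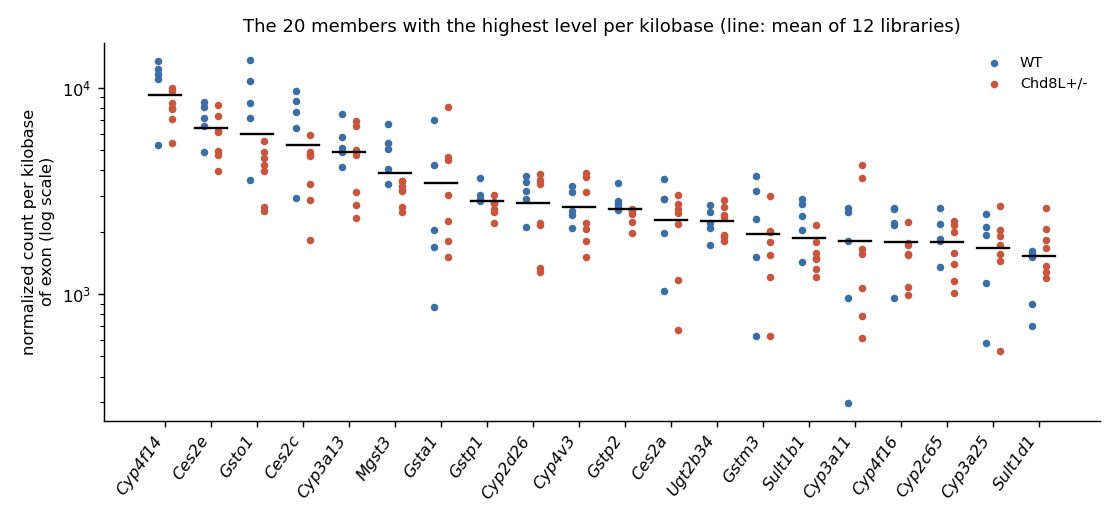
Normalized count per kilobase of exon (log scale) of the 20 enzyme genes with the highest mean level, with a point for each WT (blue) and Chd8L+/- (red) library and a line at the mean of 12 libraries. Cyp4f14 had the highest mean (9180), and the points of Cyp3a11 and Gsta1 spread far more between libraries than those of Gstp1 or Ugt2b34.

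The enzymes differed more between mice of the same genotype than most genes did. The median SD of a member on the log2 scale was 0.67 in WT and 0.61 in Chd8L+/- libraries, against 0.35 and 0.31 over all genes tested. Of the 97 members with a mean of at least 10, which were the ones tested, 19 differed over 10-fold between the highest and the lowest library or were at 0 in one, and 7 differed less than 2-fold, with a median of 4.77-fold. The sulfotransferase genes Sult6b2 (176-fold) and Sult1a1 (100-fold) were among those with wide ranges, and Cyp1a1 and Cyp4a10 have no fold since a library was at 0. Among the steady genes were Gstt3 (1.45-fold), Cyp2s1 (1.64-fold), Gstp1 (1.65-fold), Ugt2b34 (1.66-fold) and Gstp2 (1.75-fold).

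In some subfamilies several members had their extremes in the same library, while in others, such as the 6 sulfotransferases, whose lowest values fell in 6 libraries, they did not. Chd8L+/- replicate 4 was the highest of the 12 libraries for 24 of the 97 members, among them 5 of 9 Cyp3a genes (Cyp3a11, Cyp3a16, Cyp3a41a, Cyp3a41b and Cyp3a44), 3 of 4 Gsta genes and 4 of 7 Cyp2d genes. WT replicate 3 was the lowest for 21 members, among them 4 Cyp3a genes and 4 of 7 Gstm genes, and WT replicate 4 was the lowest for 6 of 7 Ugt2 genes. Cyp3a11, the main drug-oxidizing Cyp3a of mouse liver and gut, was 13310, 12750, 1509, 4886 and 9245 in WT replicates 1 to 5, and its lowest, median and highest Chd8L+/- values were 3121, 8024 and 21610. The groups overlapped between 3121 and 13310, with the lowest library in WT and the highest in Chd8L+/- (log2 fold change 0.27 ± 0.58 SE, limma adjusted p = 0.799).

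Markers of the stretch of the intestine differed between libraries as well. For 12 proximal small intestine markers the sum was 87550 to 161900 in WT and 43990 to 141700 in Chd8L+/- libraries. Of 11 tested, 8 lay below 0, with a median log2 fold change of −0.32. At an unadjusted limma p of 0.05 or less 4 were lower and 0 higher (11.8% of all genes were lower). Limma and edgeR called 0, and DESeq2 called 2, both lower (4.49% of all genes). Lct, Fabp1 and Rbp2 are also enterocyte markers here. The summed value of 8 markers of the distal small intestine was 10240 to 40630 in WT and 3219 to 59190 in Chd8L+/- libraries, and Fabp6, the ileal bile acid binding protein, was at 42.8 in Chd8L+/- replicate 6 and at 22960 in Chd8L+/- replicate 5. The sum of 11 colon markers was highest in Chd8L+/- replicate 4 (31570, against 7225 to 22060 in the other libraries), with Car1 at 19140 there. The same library had the highest value of Cyp2c55, 6988 against a median of 2044 in its group, and of Sult1a1, 1384 against 267 or less in the other libraries. Of 8 distal markers 6 had a log2 fold change below 0, and 0 had an unadjusted limma p of 0.05 or less. Of 11 colon markers 5 lay below 0, with 1 higher and 2 lower at that p (12.5% and 11.8% of all genes). The part of the sampled stretch of intestine in the results was not tested.

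**Figure D2:**
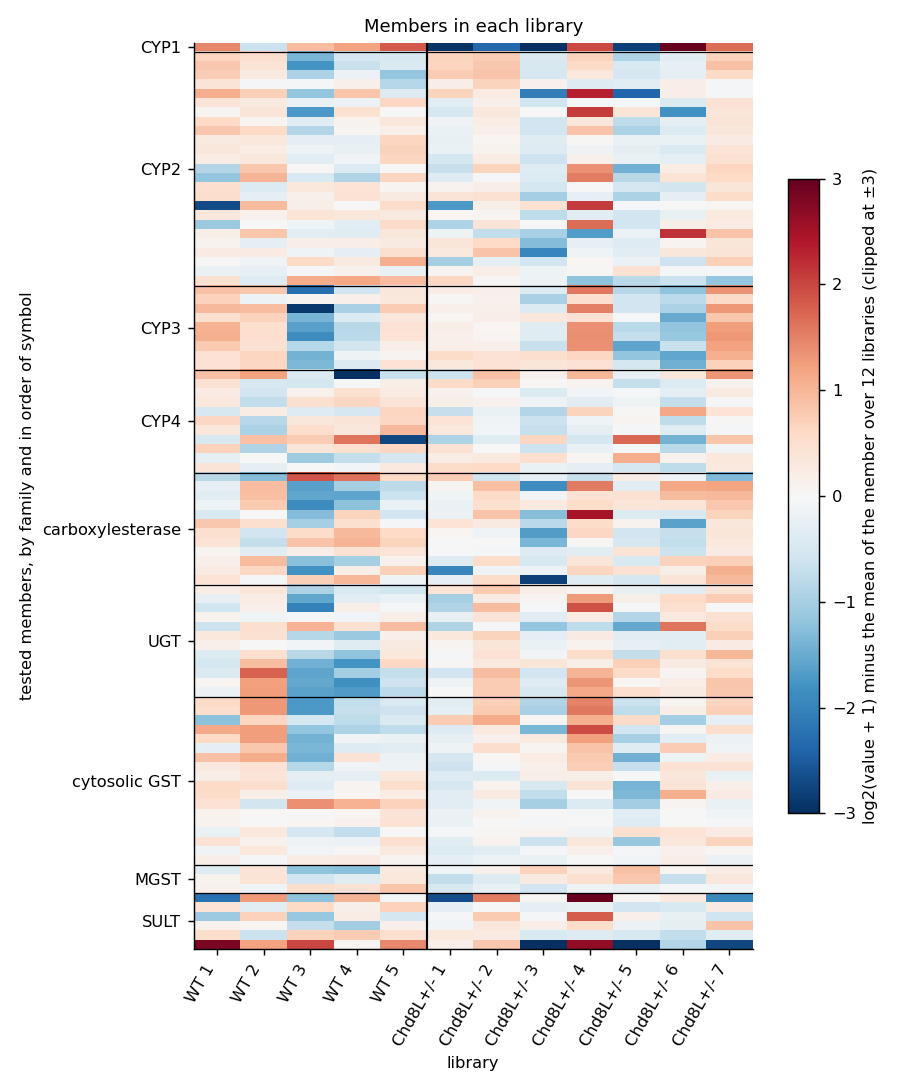
Difference of log2(value + 1) of each of the 97 tested members from its own mean over 12 libraries, by family (rows, in order of symbol) and library (columns; the vertical line separates WT from Chd8L+/-). Runs of neighbouring rows share a color in Chd8L+/- replicate 4, the highest library for 24 members, and in WT replicate 3, the lowest for 21.

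The study asked how losing 1 copy of Chd8 alters gene expression in the gut epithelium, and for the xenobiotic enzymes the comparison of 7 Chd8L+/- with 5 WT libraries gave no gene past the threshold. With limma on log2(value + 1) and Benjamini-Hochberg adjustment over all genes tested, 0 of 97 members had an adjusted p of 0.05 or less, where 3 of 12808 genes (0.0234%) did. At an unadjusted p of 0.05 or less there were 15 members (15.5%), of which 5 were higher and 10 lower in Chd8L+/-, a smaller share than the 24.3% of all genes. The log2 fold change was above 0 for 49 members and below 0 for 48, with a median of 0.01 for the members and of 0.01 for all genes. On the recovered reads edgeR called 0 members (0.039% of all genes) and 9 at an unadjusted p of 0.05 or less (9.28%; 22.4% of all genes). DESeq2, the tool of the study, called 4 members (4.12%; 6.29% of all genes), with Cyp2u1, Gsto1 and Mgst3 lower (4.49% of all genes were) and Cyp4f40 higher (1.8%). In bulk RNA, fewer cells of a type and less RNA per cell cannot be told apart, for these and all results here.

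**Figure D3:**
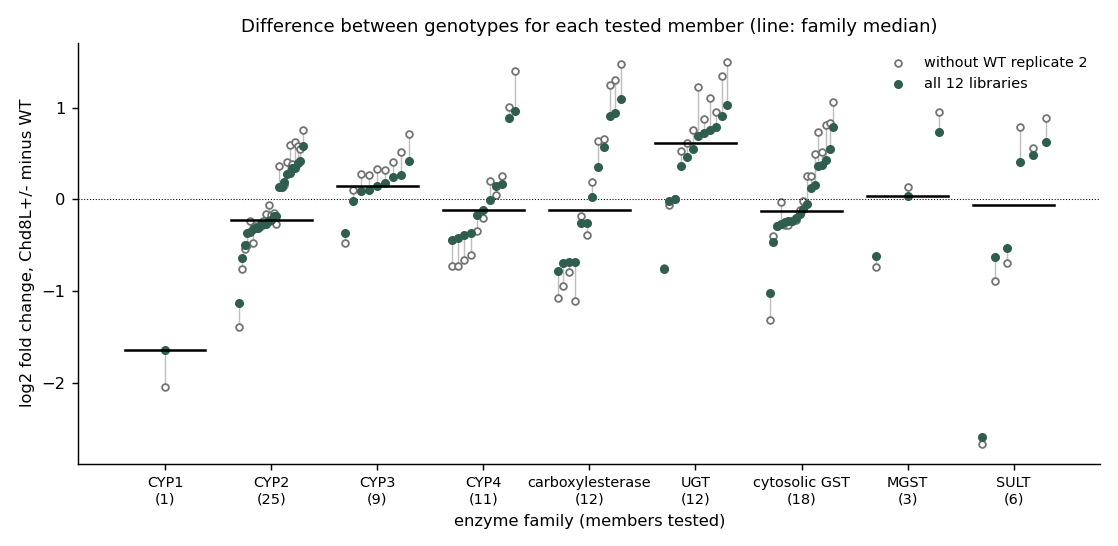
Log2 fold change (Chd8L+/- minus WT) of each tested member by enzyme family, with all 12 libraries (filled) and without WT replicate 2 (open, joined by a gray line), and the family median with all libraries (black line). With all libraries the UGTs have the highest median of the 9 families (0.62), and the open points lie farther from 0 than the filled ones for most of the members with large differences.

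Among the oxidizing enzymes, Cyp4f40 had the smallest p of all members. Cyp4f40 (chr17:32658900-32676914, plus strand) belongs to the Cyp4f family, whose known members hydroxylate fatty acids and leukotrienes. Its value was 736, 892, 433, 551 and 632 in WT replicates 1 to 5, and the lowest, median and highest Chd8L+/- values were 944, 1104 and 1909. All 7 Chd8L+/- libraries therefore lay above all 5 WT libraries, and Cyp4f40 was the sole tested member without overlap (0.515% of all genes had none, and 0.242% with Chd8L+/- higher). WT libraries averaged 649 ± 176 (SD, n = 5) and Chd8L+/- libraries 1200 ± 333 (SD, n = 7). The log2 fold change was 0.89 ± 0.20 (SE, limma p = 0.000493, adjusted p = 0.121), and a two-sided exact permutation test gave p = 0.00126, the smallest possible with 5 and 7 libraries. As Cyp4f40 was named for its small p and its lack of overlap, the permutation p-value is no separate support. None of the 75-base stretches of the gene occurred in another gene.

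Most of the other Cyp4f genes, which but for Cyp4f18 lie on chromosome 17 as well, had values on the opposite side of 0. Cyp4f14 was 26760, 12820, 29670, 32750 and 28090 in WT replicates 1 to 5, and 13070, 19280 and 24030 were its lowest, median and highest Chd8L+/- values. All 7 Chd8L+/- libraries were thus below 4 of the WT libraries and above WT replicate 2. This gave a log2 fold change of −0.37 ± 0.24 (SE, limma adjusted p = 0.351). Cyp4f37 averaged 1170 ± 396 in WT (SD, n = 5) and 836 ± 243 in Chd8L+/- (SD, n = 7; log2 fold change −0.44, limma adjusted p = 0.323), again with WT replicate 2 lowest, at 493, while the highest Chd8L+/- library (1265) lay inside the range of the other WT libraries. Of the 8 Cyp4f genes tested, 6 had a negative log2 fold change, with a median over the 8 of −0.27 (−0.48 without WT replicate 2), and WT replicate 2 was the lowest of the 12 libraries for 5 of them. Within a library, the log2 ratio of Cyp4f40 to Cyp4f14 was −6.10 to −5.18 in WT replicates 1, 3, 4 and 5, −3.84 in WT replicate 2 and −4.50 to −3.34 in Chd8L+/-. This pair was chosen after its values were seen, so its ratio is given without a test.

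Cyp2u1, which hydroxylates arachidonic acid and other long fatty acids, was 317, 177, 499, 518 and 434 in WT replicates 1 to 5, and 99.5, 146 and 356 were its lowest, median and highest Chd8L+/- values. WT replicate 2 again lay inside the Chd8L+/- range, and the highest Chd8L+/- library, replicate 1, lay inside the WT range. Cyp2u1 had a log2 fold change of −1.13 ± 0.34 (SE, limma p = 0.00512, adjusted p = 0.121; exact permutation p = 0.0202). A gene on the opposite strand, 4930534D22Rik, overlaps Cyp2u1, and 10.8% of the stretches of Cyp2u1 occurred in another gene. Of the 25 CYP2 genes tested, 10 had a log2 fold change above 0 and 15 below, with a median of −0.22. The most abundant by value was Cyp2d26 (5520 ± 1120 in WT, SD, n = 5, and 4560 ± 1900 in Chd8L+/-, SD, n = 7; log2 fold change −0.37, limma adjusted p = 0.432), and the smallest p among those above 0 was that of Cyp2s1 (log2 fold change 0.19, limma adjusted p = 0.318).

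Cyp1a1, the gene that the aryl hydrocarbon receptor is best known for inducing, split the Chd8L+/- mice. It was 37.3, 8.12, 26.2, 31.7 and 50.2 in WT replicates 1 to 5. In Chd8L+/- replicates 1, 2, 3 and 5 it was 0.864, 1.78, 0 and 1.05, which is at most 2 reads, while in replicates 4, 6 and 7 it was 55.5, 158 and 44.4. All WT libraries lay above the first set, and WT replicate 5 alone reached into the second. The log2 fold change of −1.64 ± 1.19 (SE, limma adjusted p = 0.404) went against the means of 30.7 in WT and 37.3 in Chd8L+/-, and it was 0.29 with edgeR and 0.28 with DESeq2. Of the other targets of the receptor, Ugt1a6a was 82.9 in WT and 139 in Chd8L+/- on average (log2 fold change 0.72, limma adjusted p = 0.235) and Tiparp 529 and 432 (log2 fold change −0.29, limma adjusted p = 0.264).

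The 9 Cyp3a genes had small differences beside a wide spread, 7 of them above 0 and 2 below, with a median log2 fold change of 0.15 (0.32 without WT replicate 2). Cyp3a13, the most abundant by value, averaged 16200 ± 3730 in WT (SD, n = 5) and 13200 ± 5410 in Chd8L+/- (SD, n = 7), with a log2 fold change of −0.37. Cyp3a16, the one with the highest log2 fold change (0.42), was 0.72 when WT replicate 1 was left out and −0.24 when WT replicate 3 was.

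Promoters of some Cyp2c and Cyp3a genes hold a sequence that played no part in choosing the genes. HNF4A is a nuclear receptor that keeps up enterocyte and hepatocyte genes, and the core of a site it is known to bind, CAAAGTCCA, was searched on both strands of the RefSeq promoters (GRCm38.p6, 250 bases before to 50 after each start). It was in 0.475% of 32851 promoters and in 11 of the 111 promoters (9.91%) that 95 of the members have in that table. These belong to 11 genes, and in 10 of them the core lies 45 to 125 bases before the start. Those stretches are shown with the core in capitals, as they show how far duplicated neighbours still share the bases around it.
Cyp2c40, chr19:39812826-39812884, minus strand: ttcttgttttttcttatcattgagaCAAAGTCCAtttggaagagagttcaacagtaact
Cyp2c69, chr19:39886811-39886869, minus strand: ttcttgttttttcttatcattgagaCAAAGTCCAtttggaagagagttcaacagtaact
Cyp2c67, chr19:39649134-39649192, minus strand: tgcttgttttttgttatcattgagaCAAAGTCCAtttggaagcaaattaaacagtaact
Cyp2c68, chr19:39741145-39741203, minus strand: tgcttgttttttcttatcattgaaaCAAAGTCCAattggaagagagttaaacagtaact
Cyp2c65, chr19:39060865-39060923, plus strand: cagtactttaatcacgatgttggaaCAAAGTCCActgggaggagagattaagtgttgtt
Cyp2c70, chr19:40187317-40187375, minus strand: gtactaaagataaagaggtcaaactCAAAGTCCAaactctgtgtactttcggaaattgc
Cyp3a11, chr5:145879930-145879988, minus strand: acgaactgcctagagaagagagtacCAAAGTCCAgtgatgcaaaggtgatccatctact
Cyp3a16, chr5:145469789-145469847, minus strand: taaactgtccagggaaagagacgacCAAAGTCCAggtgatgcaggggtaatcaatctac
Cyp3a41a, chr5:145720198-145720256, minus strand: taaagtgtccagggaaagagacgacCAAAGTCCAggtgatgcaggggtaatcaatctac
Cyp3a41b, chr5:145584792-145584850, minus strand: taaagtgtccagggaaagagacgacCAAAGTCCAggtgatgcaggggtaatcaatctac
The eleventh gene, Sult1b1, holds the core after its start. The stretches of Cyp2c40 and Cyp2c69, and those of Cyp3a41a and Cyp3a41b, were the same in every base, so promoters of a cluster do not count as independent occurrences. Of the 10 genes with the core that were tested, 5 Cyp2c genes had log2 fold changes of −0.31 to −0.22, 4 Cyp3a genes of 0.18 to 0.42, and Sult1b1 of −0.53. Their median level per kilobase was 154, against 152 for the other 87 tested members. Hnf4a itself averaged 14800 in WT and 14500 in Chd8L+/- libraries (log2 fold change −0.06, limma adjusted p = 0.879).

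In the ratio of the 2 shares the other motifs lay closer to the background, though the TATA box and the xenobiotic response element lay farther from it in percentage points. A TATA box (TATAAA) was in 27.9% of the promoters of the members and in 13.6% of all promoters, and the core of an HNF1 site (GTTAAT) in 13.5% and 7.1%. The core of the xenobiotic response element (GCGTG), which the aryl hydrocarbon receptor binds, was in 19.8% and 32.4%, and that of the antioxidant response element (TGACNNNGC), which NRF2 binds, in 9.01% and 12.4%. A match describes the letters of these windows and not the binding of a factor.

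**Figure D4:**
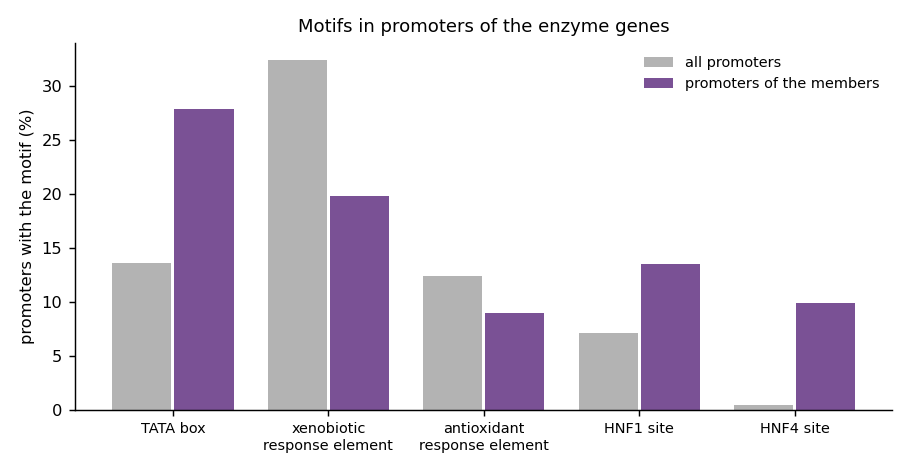
Percentage of promoters holding each of 5 motifs, for all 32851 RefSeq promoters (gray bars) and for the 111 promoters of the enzyme genes (purple bars). As a ratio the HNF4 site differs most, with 9.91% against 0.475%, and in percentage points the TATA box, with 27.9% against 13.6%.

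Among the carboxylesterases, 6 of 12 had a log2 fold change above 0 and 6 below. Ces1e, known as egasyn, which holds beta-glucuronidase in the endoplasmic reticulum, was 173, 408, 73.6, 72.4 and 138 in WT replicates 1 to 5, and 198, 299 and 429 were its lowest, median and highest Chd8L+/- values. All Chd8L+/- libraries lay above 4 of the WT libraries, and WT replicate 2 lay among them. Its log2 fold change of 1.1 ± 0.37 (SE, limma p = 0.011, adjusted p = 0.127; exact permutation p = 0.029) was the highest of all members in the limma fit, and it was 0.85 with edgeR and with DESeq2. Of 5 Ces1 genes tested, 4 had a log2 fold change above 0, with a median of 0.91.

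Ces2c, a carboxylesterase of the small intestine, was 14630, 6712, 19850, 22200 and 17500 in WT replicates 1 to 5, and 4216, 10770 and 13550 were its lowest, median and highest Chd8L+/- values. The arrangement was the mirror image of that of Ces1e, with all Chd8L+/- libraries below 4 WT libraries and WT replicate 2 among them. Its log2 fold change was −0.78 ± 0.33 (SE, limma p = 0.0324, adjusted p = 0.173; exact permutation p = 0.0606), and 25.9% of its stretches occurred in another gene, most of them in the pseudogene Ces2d-ps. Ces2e, the most abundant, had a log2 fold change of −0.26 (limma adjusted p = 0.453). Of 6 Ces2 genes tested, 4 lay below 0 and 2 above, with a median of −0.26.

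Of the conjugating enzymes, the UGTs had the largest share of members on one side of 0. Of 12 tested, 10 had a log2 fold change above 0, with a median of 0.62. Of these, 1 (Ugt2b5) had an unadjusted limma p of 0.05 or less, where 12.5% of all genes were higher at that p. All 7 Ugt2 genes were above 0, with a median of 0.69 (1.11 without WT replicate 2), from 0.01 for Ugt2b34, the most abundant UGT by value, to 1.03 for Ugt2b5, although Ugt2b34 was −0.06 with the letter of the library name as a block. Ugt2b5 was 174, 469, 63.5, 59.5 and 114 in WT replicates 1 to 5, with 141, 280 and 431 as its lowest, median and highest Chd8L+/- values. WT replicate 2 was the highest of the 12 libraries for Ugt2b5, Ugt2b36 and Ugt2b37, and the groups overlapped (log2 fold change 1.03 ± 0.44, SE, limma adjusted p = 0.18). Ugt2b34 averaged 9700 ± 1600 in WT (SD, n = 5) and 9820 ± 1760 in Chd8L+/- (SD, n = 7). Of the Ugt1a genes, which include the enzyme for bilirubin (Ugt1a1), 3 lay above 0 and 2 below, and Ugt1a9 had the lowest value (log2 fold change −0.76, limma adjusted p = 0.364).

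Gsto1 was the glutathione transferase with the largest difference. It belongs to the omega class, which reduces dehydroascorbate and methylated arsenic species rather than joining glutathione to drugs. It was 14400, 7200, 27600, 21780 and 17060 in WT replicates 1 to 5, and 5134, 8555 and 11220 were its lowest, median and highest Chd8L+/- values. The Chd8L+/- libraries all lay below WT replicates 1, 3, 4 and 5, and WT replicate 2 lay inside their range. WT libraries averaged 17600 ± 7680 (SD, n = 5) and Chd8L+/- libraries 8200 ± 2260 (SD, n = 7), with a log2 fold change of −1.02 ± 0.30 (SE, limma p = 0.00467, adjusted p = 0.121; exact permutation p = 0.0164). Cfap43 overlaps Gsto1 on the opposite strand, and the counting's use of strand is not given in the sources used here.

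Of the 18 cytosolic GSTs tested, 7 lay above 0 and 11 below, with a median of −0.13 (−0.03 without WT replicate 2). All 4 Gsta genes lay above 0 (0.16 to 0.79; median 0.39, and 0.78 without WT replicate 2), with Gsta3, which detoxifies aflatoxin in the mouse, at 51.4 ± 28.6 in WT (SD, n = 5) and 90.3 ± 41.2 in Chd8L+/- (SD, n = 7; limma adjusted p = 0.229). Gstp2 and Gstt3 had unadjusted limma p-values of 0.0425 and 0.0451 (exact permutation p = 0.00379 and 0.0253) at small differences of −0.25 and −0.24 on the log2 scale. Neither was called by limma after adjustment. Both were singled out after their values were seen, so the permutation p-values are no separate support. The Gstp2 values share 45.8% of their stretches with other genes, mostly with Gstp1, whose difference was −0.20.

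The microsomal glutathione transferases, membrane proteins that also reduce lipid peroxides, lay on both sides of 0. Mgst3 was 4434, 3736, 5900, 5513 and 7288 in WT replicates 1 to 5, and 2750, 3505 and 3897 were its lowest, median and highest Chd8L+/- values. WT replicate 2 was the one WT library inside the Chd8L+/- range. WT libraries averaged 5370 ± 1370 (SD, n = 5) and Chd8L+/- libraries 3440 ± 450 (SD, n = 7), with a log2 fold change of −0.62 ± 0.16 (SE, limma p = 0.00198, adjusted p = 0.121; exact permutation p = 0.00379).
Mgst1 was 1326, 2249, 740, 726 and 2095 in WT replicates 1 to 5, and 1570, 1991 and 3171 were its lowest, median and highest Chd8L+/- values. Here WT replicates 2 and 5 lay among the Chd8L+/- libraries and the others below them, with a log2 fold change of 0.74 ± 0.29 (SE, limma p = 0.0233, adjusted p = 0.154; exact permutation p = 0.053). The third gene, Mgst2, differed by 0.04.

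Among the sulfotransferases, Sult1b1, which sulfates phenols and thyroid hormones, averaged 6410 ± 1630 in WT (SD, n = 5) and 4390 ± 876 in Chd8L+/- (SD, n = 7), with a log2 fold change of −0.53 ± 0.19 (SE, limma p = 0.0141, adjusted p = 0.134; exact permutation p = 0.0265). Sult2b1, which sulfates cholesterol, averaged 4680 ± 1450 and 2960 ± 885 (log2 fold change −0.63, limma p = 0.0255, adjusted p = 0.159; exact permutation p = 0.0455), and it overlaps Lmtk3 on the opposite strand. Sult1d1 lay on the other side, at 3110 ± 1060 and 4230 ± 1240 (log2 fold change 0.48, limma adjusted p = 0.248).
Sult6b2 had the largest difference of all members in the limma fit and was singled out after its values were seen. It was 2965, 957, 1676, 435 and 1136 in WT replicates 1 to 5, and 465, 731, 16.8, 2640, 49.2, 224 and 62.1 in Chd8L+/- replicates 1 to 7. Replicate 4 lay near the top of the WT range, and 4 of the 7 Chd8L+/- libraries lay below all WT libraries. The log2 fold change was −2.59 ± 1.02 (SE, limma p = 0.0232, adjusted p = 0.154; exact permutation p = 0.0593). It was −1.25 with edgeR and −1.26 with DESeq2, where Sult1a1, at 1.35, differed by more.

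**Figure D5:**
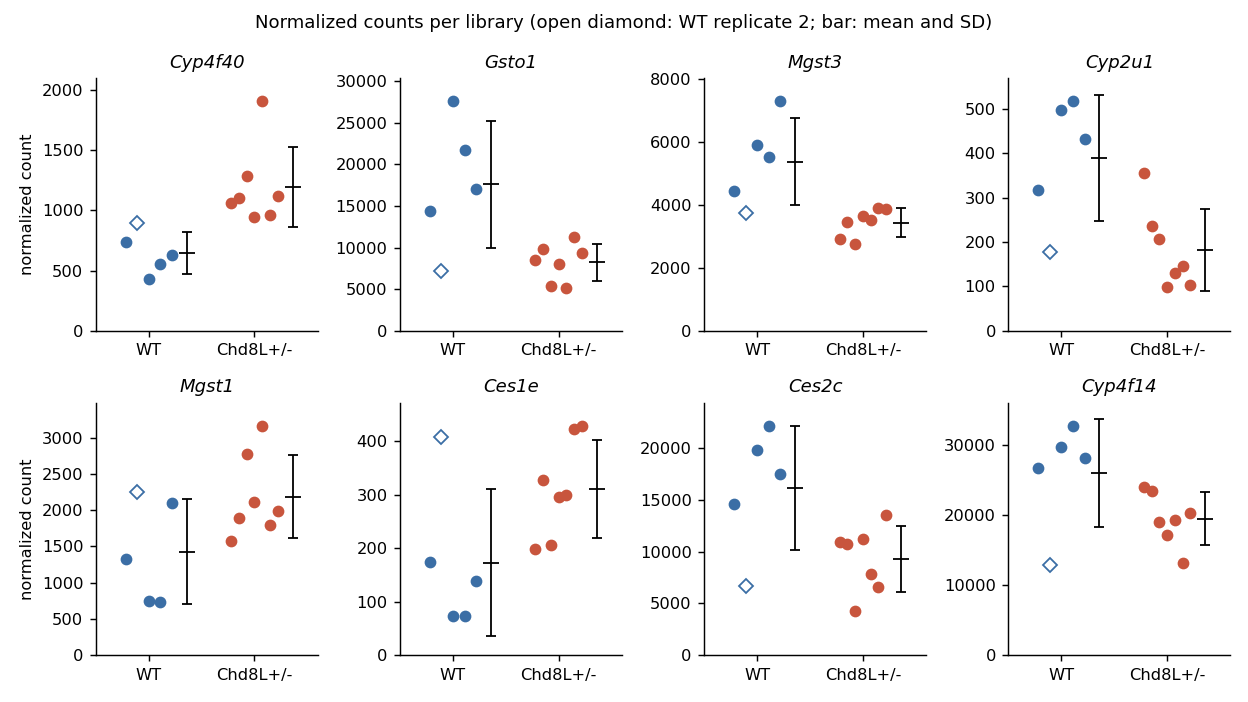
Normalized counts per library of 8 enzyme genes in WT (blue, n = 5) and Chd8L+/- (red, n = 7), with the mean and SD as black bars, and WT replicate 2 as an open diamond. Every panel except that of Cyp4f40 has WT replicate 2 inside or beyond the range of the Chd8L+/- points, and Cyp4f40 has all Chd8L+/- points (944 to 1909) above all WT points (433 to 892).

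The transcription factors that control these enzymes come next. Of 13 tested, 7 lay above 0 and 6 below, with a median log2 fold change of 0.04, and 0 were called by limma (3 higher and 0 lower at an unadjusted p of 0.05 or less, where 12.5% of all genes were higher, 2 by DESeq2, both higher, where 1.8% of all genes were, and 0 by edgeR). Nr1i2, the pregnane X receptor that senses drugs, averaged 1830 ± 260 in WT (SD, n = 5) and 1530 ± 196 in Chd8L+/- (SD, n = 7; log2 fold change −0.26, limma adjusted p = 0.214). Nr3c1, the glucocorticoid receptor, averaged 2070 ± 172 and 2650 ± 297 (log2 fold change 0.35, limma adjusted p = 0.122).

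The genes that supply the enzymes with electrons, haem, glutathione, NADPH, glucuronic acid and active sulfate mostly had values below 0. Of 18, 16 had a log2 fold change below 0, with a median of −0.34. Limma called 0 of them (7 lower and 0 higher at an unadjusted p of 0.05 or less, where 11.8% of all genes were lower), DESeq2 called 3 lower (4.49% of all genes) and edgeR 0. Gss, glutathione synthetase, averaged 2480 ± 594 in WT (SD, n = 5) and 1640 ± 177 in Chd8L+/- (SD, n = 7), with a log2 fold change of −0.57 ± 0.15 (SE, limma p = 0.00185, adjusted p = 0.121; exact permutation p = 0.00505). On the other side the smallest p was that of Papss1, which makes active sulfate (log2 fold change 0.09).
Of 38 genes of other biotransformation enzymes, 18 lay above 0 and 20 below, with a median of −0.08, and 0 were called by limma (4 higher and 8 lower at an unadjusted p of 0.05 or less, where 24.3% of all genes were either; 3 by DESeq2, all lower, where 4.49% of all genes were; 0 by edgeR). Aldh2, an aldehyde dehydrogenase, averaged 6010 and 3990 (log2 fold change −0.56, limma adjusted p = 0.121) and Fmo2, a flavin monooxygenase, 21.7 and 41.1 (log2 fold change 0.85, limma adjusted p = 0.144). Of 19 targets of NRF2, 6 lay above 0 and 13 below, with a median of −0.20, and 0 were called by limma (4 lower and 0 higher at an unadjusted p of 0.05 or less, where 11.8% of all genes were lower, 2 by DESeq2, both lower, where 4.49% of all genes were, and 0 by edgeR). The smallest p on each side of 0 was that of Hmox1, haem oxygenase 1 (61.7 and 17.4, log2 fold change −1.55, limma adjusted p = 0.127), and of Nqo1 (402 and 536, log2 fold change 0.43, limma adjusted p = 0.261). The pathway lists share genes, such as Nqo1, which is also in the list of other biotransformation enzymes. The counts of these lists are therefore not independent.

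Since 1 WT library lay among the Chd8L+/- libraries for most of these genes, the comparison was repeated without it. Without WT replicate 2, limma called 19 of 97 members (19.6%), and 3534 of 12807 genes (27.6%), so the share of members called was below that of all genes there too. Of the 19, 9 were higher in Chd8L+/- (14% of all genes were): Cyp4f40, Ces1e, Ces1f, Gstm2, Mgst1, Ugt2b5, Ugt2b36, Ugt2b37 and Ugt2b38. The other 10 were lower (13.6% of all genes were): Cyp2u1, Cyp4f14, Cyp4f16, Cyp4f17, Cyp4f37, Ces2c, Gsto1, Mgst3, Sult1b1 and Sult2b1. The log2 fold changes were then 1.01 for Cyp4f40 (limma adjusted p = 0.00442), −1.31 for Gsto1 (0.0042), −1.39 for Cyp2u1 (0.0084), −0.74 for Mgst3 (0.00536), 1.48 for Ces1e (0.00459) and −1.07 for Ces2c (0.015). Across the alternatives tried, these were the lowest adjusted p-values, and the highest were 0.344 for Cyp4f40, Gsto1, Cyp2u1 and Mgst3, 0.346 for Ces1e and 0.392 for Ces2c. Nothing in the labels marks WT replicate 2 as faulty, and leaving out any other library gave 0 members called.

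The signs of the markers of other cells stand beside these results, with 0 markers of the lists that follow called by limma or edgeR. All 16 tested markers of cycling crypt cells had a log2 fold change above 0 (median 0.92), 16 of 18 enterocyte markers one below 0 (median −0.25, and −0.45 without WT replicate 2) and all 14 tuft cell markers one below 0 (median −1.87). Of stromal markers 8 of 9 (median 1.76) and of myeloid markers 10 of 10 (median 0.81) lay above 0, at summed values of 79.1 to 523 and 1269 to 3368 in WT and of 119 to 2556 and 1904 to 4273 in Chd8L+/- libraries. At an unadjusted limma p of 0.05 or less there were 11 crypt, 3 enterocyte, 14 tuft, 4 stromal and 4 myeloid markers. The crypt, stromal and myeloid ones were higher (12.5% of all genes were) and the enterocyte and tuft ones lower (11.8%). DESeq2 called 0, 3, 12, 1 and 1 markers of these lists in the same order and directions, where 1.8% of all genes were called higher and 4.49% lower. Of further lists, 6 of 7 goblet, 4 of 6 Paneth, 7 of 11 enteroendocrine and 11 of 14 lymphocyte markers lay below 0. Their medians were −0.12, −0.24, −0.51 and −0.20. At an unadjusted limma p of 0.05 or less 2, 1, 3 and 1 of them were lower and 0 higher. For these lists DESeq2 called 2, 0, 1 and 0, all lower. The tuft cell markers summed to 3712 to 35160 in WT, with WT replicate 2 lowest, and to 2139 to 14850 in Chd8L+/-. In liver these enzymes are abundant. Of 10 hepatocyte markers, Alb, Hpx, Fgb, Fga and Ahsg had no deposited value. The other 5 summed to 166 to 817 over all libraries, and the 111 enzyme genes summed to 134100 to 244200. There was no liver library to set these sums against, and a part of liver cells was not tested. The part of the other cell types in the differences of the enzymes was not tested.

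The names of the libraries open with a letter, A to D, whose meaning the sources do not give. Between libraries of the same letter, the log2 difference of Cyp4f40 was 0.45 in A (2 WT and 2 Chd8L+/-), 1.69 in B (2 and 1) and 1.27 in C (1 and 3), and D held a single Chd8L+/- library. That of Gsto1 was −0.64, −1.91 and −1.49, that of Cyp2u1 −0.72, −1.85 and −1.11 and that of Mgst3 −0.36, −0.85 and −0.80 in A, B and C. Each of these genes kept its sign in all 3, and the difference was smallest in A, the letter of WT replicate 2. Some other members changed sign in A. Ces1e was −0.11 in A, 1.57 in B and 2.02 in C, and Ugt2b5 was −0.21, 1.75 and 1.95. With the letter as a block, limma called 2 members, both at an adjusted p of 0.0434 (2.06%; 3.52% of all genes), Cyp4f40 as higher (1.37% of all genes were) and Gsto1 as lower (2.15%).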

How the data were processed

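Poly(A) RNA libraries of gut epithelial cells from 5 WT and 7 Chd8L+/- mice had been sequenced by the authors as 75-base single-end reads, mapped to mm10 with Tophat2 and normalized with DESeq2. What the authors deposited is a signal for every gene in each library, that is, the counts on the gene divided by a size factor. The counting program, annotation and use of strand are not given in the sources used here. The values of each library were whole multiples of 1 read for 100% of values (within 0.001), so reads were recovered; totals were 15691662 to 20761315, and counting error is largest for genes with few reads. The members and lists were chosen with earlier results of these data known.

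Log2(value + 1) was fitted with limma 3.58.1 (R 4.3.3; lmFit, eBayes with trend) over the 12808 genes whose mean value reached 10, among them 97 of 111 members, with Benjamini-Hochberg adjustment and a threshold of 0.05. The lists of markers and pathway genes were described by counts and medians without a test. Single genes were also compared by a two-sided exact permutation test. For every gene named for a small limma p, the permutation p-value is no separate support. Genes were named by rule: in each of 9 families the highest mean and the smallest p in each direction, members without overlap, and the smallest p in each direction of 5 pathway lists (regulators, cofactor supply, other biotransformation enzymes, targets of the aryl hydrocarbon receptor and of NRF2). Genes outside the rule were chosen after their values were seen. On recovered reads, edgeR 4.0.16 and DESeq2 1.42.0 were among 21 alternatives, beside other pseudocounts, filters and scaling, blocks for the replicate number and library letter, and each library left out. The fits were tested on simulated data.

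Exon lengths and positions come from GENCODE M21 on GRCm38, the build of mm10, matched by symbol for all 111 members. Replicate numbers are shared between groups, but same-numbered libraries did not deviate together (correlations of 0.189, −0.344, −0.129, −0.171 and −0.228), so no pairing was used.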

Additional observations from a re-analysis of the deposited data

Results flagged for a closer look

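Of 64 groups of libraries examined for the named genes, 3 held a library far from the rest of its group by Dixon's test, where chance gives about 3.2. Cyp4f14 was 12800 in WT replicate 2, below the other WT libraries (26800 to 32800). Cyp4f37, of the same gene cluster, was 493 in WT replicate 2, below the other WT libraries (1170 to 1470). Nr1i2 was 1140 in Chd8L+/- replicate 6, below the other Chd8L+/- libraries (1480 to 1760).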

How the results depend on the processing

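The calls depended on the test and on 1 library. Against 0 members and 3 genes called by limma with all libraries, edgeR called 5 genes in all, DESeq2 called 4 members and 805 genes, and the letter of the library name as a block gave 2 members and 451 genes. Leaving out each library in turn gave 0 to 19 members and 0 to 3534 genes, and the highest values came without WT replicate 2; the cause was not tested. With the replicate number as a block 0 genes were called; the numbers do not pair the libraries, and a library correlated best with its own number for replicate 1 alone. The log2 fold change of Cyp1a1 was 0.29 with edgeR and 0.28 with DESeq2, where the cause was not tested. Ugt2b34 was −0.06 with the letter as a block. With each library left out, Ugt2b34 ranged from −0.08 to 0.08, Cyp3a16 from −0.24 to 0.72 and Papss1 from −0.00 to 0.19. Of 669 values of named genes under the alternatives, 630 kept their sign and their side of the threshold, 29 passed it and 10 changed sign. All 188 medians of families moved by less than the spread between replicates. That spread is wide, so this measure does not show that a median was stable. It also passed CYP1, whose sole member Cyp1a1 changed sign with edgeR and DESeq2. The 14 members with a mean under 10 were not in the main test, and with no filter limma called 0 members.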
